A study of Mus musculus with 23 samples.

Results

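The genes described are 8 members of the neuropilin, vascular endothelial growth factor (VEGF) and neurotrophin receptor systems: Nrp1, Nrp2, Vegfa, Kdr, Flt1, Ntrk2, Ntrk3 and Ngfr. They were chosen by name as receptors proposed to bind mutant glycyl-tRNA synthetase or receptors related to these, together with the ligand VEGF-A. They make up 8 of the 38924 genes in each deposited table. The study asked which messenger RNAs are attached to ribosomes in motor neurons of 2-week-old Gars C201R mice, an age that its title places ahead of disease. Ribosomes were captured from frozen spinal cord by antibody against the haemagglutinin (HA) tag that RiboTag mice add to ribosomal protein Rpl22 wherever Cre is active, here under ChAT-Cre, which is active in cholinergic cells and so also in cholinergic neurons other than motor neurons. The wild-type Cre group had 5 libraries with the labelled genotype Rpl+/-;Chat+/-;C201R+/+, and the C201R Cre group had 6 libraries labelled Rpl+/-;Chat+/-;C201R+/-. The negative controls lacked Cre: 6 wild-type libraries were labelled Rpl+/-;Chat+/+;C201R+/+ and 6 C201R libraries Rpl+/-;Chat+/+;C201R+/-. The labels do not say that the libraries of a group came from separate animals, so p-values measure the spread between these libraries. All 4 groups carried the tag allele, the age of 2 weeks and the strain background B6.CgxB6.129.

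Neuropilins are transmembrane co-receptors that bind class 3 semaphorins together with plexins and bind VEGF-A together with the receptor tyrosine kinases encoded by Kdr and Flt1. Nrp1 is present on developing axons and on endothelium, and Kdr and Flt1 are best known from endothelial cells. The neurotrophin BDNF signals through the kinase receptor of Ntrk2 (TrkB), neurotrophin 3 through that of Ntrk3 (TrkC), and every neurotrophin binds the p75 receptor of Ngfr. Mutant glycyl-tRNA synthetase has been proposed to act outside the cell by binding neuropilin 1 in competition with VEGF-A and by binding Trk receptors. On the mouse build GRCm38 with GENCODE M21 genes, Nrp1 lies at chr8:128358604-128503363 (+), Nrp2 at chr1:62703285-62818695 (+), Vegfa at chr17:46016993-46032369 (-), Kdr at chr5:75932827-75978458 (-) and Flt1 at chr5:147561604-147726011 (-). Ntrk2 lies at chr13:58806569-59133970 (+), Ntrk3 at chr7:78175959-78738012 (-) and Ngfr at chr11:95568818-95587735 (-), and all 8 are protein-coding genes.

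Total expected counts ran from 9031654 to 19671869 per library. Ribosomal RNA-like genes took 50.6% to 89.0% of them in wild type with Cre, 53.0% to 75.3% in C201R with Cre and 55.5% to 95.6% without Cre. In wild type with Cre, replicate 2 had 50.6%, and replicates 1, 3, 4 and 5 had 78.2% to 89.0%. Levels are given as CPM, counts scaled to a library of equal size, after trimmed mean (TMM) scaling over the 23 libraries. Chat checked the Cre labels: it was at 39.1 to 68.4 CPM in wild-type Cre libraries, 13.9 to 50.8 CPM in C201R Cre libraries and 1.06 to 8.21 CPM in the 12 libraries without Cre. Gars itself was at 57.8 ± 10.5 CPM (SD, n = 5) in wild type with Cre and 70.0 ± 21.4 CPM (SD, n = 6) in C201R with Cre, a value that does not read out the C201R change. The summed level of 9 motor neuron markers was 483 to 702 CPM in wild-type Cre libraries and 177 to 559 CPM in C201R Cre libraries, against 22.2 to 83.0 CPM without Cre. A set of 4 Cre libraries stood apart in oligodendrocyte and endothelial markers, wild-type replicate 2 and C201R replicates 1, 4 and 6. Their 9 oligodendrocyte markers summed to 2108 to 7092 CPM and their 10 endothelial markers to 30.8 to 85.7 CPM, compared with 546 to 1319 CPM and 3.75 to 13.1 CPM in the other 7 Cre libraries. The set did not hold for every cell type, since C201R replicate 1 had the lowest Schwann cell marker sum with Cre, 4.24 CPM. C201R replicates 4 and 6 had motor neuron sums of 266 and 177 CPM, and share the leading title number 18405, which no wild-type library has.

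In wild type, 6 of the 8 genes differed between the Cre and no-Cre libraries (edgeR quasi-likelihood test, Benjamini-Hochberg adjusted p under 0.05), where 45.9% of the 12485 genes tested were called. Nrp2 and Ntrk3 were higher with Cre, as were 20.0% of all genes tested, and Vegfa, Kdr, Flt1 and Ntrk2 were lower, as were 25.9%. In C201R, 1 of the 8 genes, Nrp2, was called higher with Cre, and none was called lower, where 33.3% of 12741 genes were called, 14.1% higher and 19.2% lower. Other scalings, filters and tools called up to 4 members there. In wild type, scaling by library totals alone called 0 members and limma-voom called 8. Between the genotypes with Cre, 0 of 8 genes passed edgeR's adjusted threshold, where 0.331% of 12399 genes were called. One member, Vegfa, had an unadjusted p under 0.05 there, as 17.0% of the genes did, and DESeq2 and limma-voom each called Vegfa and no other member. Without Cre, 0 of 8 genes passed between genotypes by edgeR, DESeq2 or limma-voom, and 0.0% of 12588 genes were called by edgeR. An unadjusted edgeR p under 0.05 was found for 0 of 8 members and 4.49% of genes there. The median log2 fold change of the 8 genes was -1.13 in wild type with against without Cre, where that of all genes tested was -0.14.

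**Figure D1:**
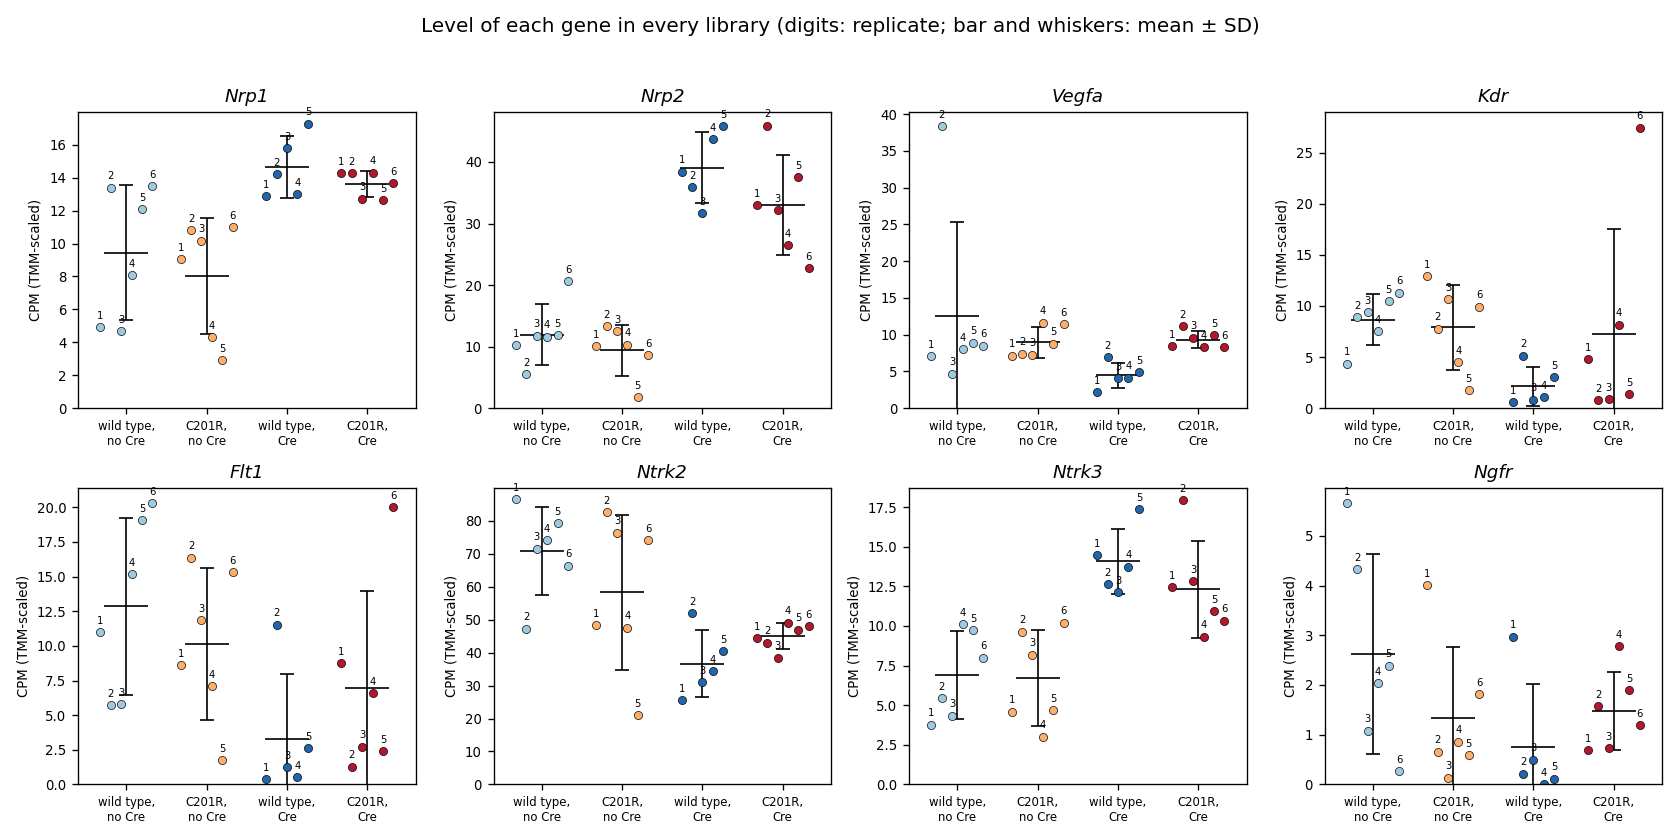
Each panel plots the TMM-scaled CPM of 1 gene (y axis, linear from 0) in every library of the 4 groups (x axis), with the replicate number beside each point and the group mean ± SD as a bar with whiskers. The Nrp2 points with Cre, 22.8 to 45.9 CPM, all lie above those without Cre, 1.76 to 20.7 CPM, and the 6 C201R Cre points for Vegfa, 8.31 to 11.2 CPM, all lie above the 5 wild-type Cre points, 2.18 to 6.97 CPM.

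Of the neuropilins, Nrp2, the co-receptor known for binding Sema3f and VEGF-C, was higher with Cre in both genotypes. In the wild-type Cre libraries it was at 38.4, 35.9, 31.7, 43.7 and 45.8 CPM, and in the wild-type libraries without Cre the lowest, median and highest values were 5.58, 11.7 and 20.7 CPM. C201R Cre libraries had 22.8, 32.6 and 45.9 CPM as lowest, median and highest, and C201R libraries without Cre 1.76, 10.2 and 13.3 CPM. Cre and no-Cre libraries did not overlap in either genotype, as was true upward of 13.3% of genes tested in wild type and 9.71% in C201R. The log2 fold change with Cre was 1.78 ± 0.28 (SE) in wild type (edgeR, adjusted p = 0.000131) and 1.70 ± 0.31 in C201R (adjusted p = 0.000621). The 2 lowest C201R Cre values, 26.5 and 22.8 CPM, were those of replicates 4 and 6, the libraries with the least motor neuron RNA. Nrp2 differed by -0.26 ± 0.18 (log2, SE) between the genotypes with Cre (edgeR, adjusted p = 0.468). In bulk precipitates such as these, a change in the number of tagged cells and a change in RNA per cell cannot be told apart.

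Nrp1, the semaphorin 3A and VEGF-A co-receptor, was more even across the libraries. It stood at 12.9, 14.2, 15.8, 12.99 and 17.3 CPM in wild type with Cre and at 4.70, 10.1 and 13.5 CPM (lowest, median, highest) in wild type without Cre, so these ranges overlapped. In C201R the Cre libraries, 12.6 to 14.3 CPM, lay above all of the no-Cre libraries, 2.93 to 10.98 CPM, as was true of 9.71% of genes tested. The log2 fold changes with Cre, 0.70 ± 0.32 in wild type and 0.66 ± 0.28 in C201R (SE), missed edgeR's threshold within each genotype (adjusted p = 0.0834 and 0.0803). In C201R Nrp1 passed by DESeq2 (adjusted p = 0.0143) and in edgeR with RLE size factors (0.0403) or without ribosomal RNA genes (0.0443), and in wild type it passed by limma-voom (0.00771). Averaged over both genotypes in the fit of all 23 libraries, Nrp1 was higher with Cre by 0.67 ± 0.21 (edgeR, adjusted p = 0.00936). The genotype difference with Cre was -0.10 ± 0.14 (edgeR, adjusted p = 0.711), the smallest of the 8 members, and the 6 C201R Cre values lay inside a span of less than 2 CPM.

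The ratio of Nrp2 to Nrp1 counts within each library needs no scaling between libraries. Its log2 value averaged 1.41 ± 0.28 (SD, n = 5) in wild type with Cre and 0.37 ± 0.92 (n = 6) without Cre, and 1.24 ± 0.37 in C201R with Cre and 0.17 ± 0.66 without. By a two-sided exact permutation test adjusted over 12 ratio comparisons, the Cre difference was 1.07 in C201R (exact p = 0.00866, adjusted p = 0.0346) and 1.04 in wild type (exact p = 0.0173, adjusted p = 0.0519). Leaving out any 1 of the 12 C201R libraries but no-Cre replicate 4 gave an adjusted p of 0.0519, above the threshold, at differences of 0.91 to 1.17. That exact test had fewer libraries, and its adjustment included wild-type comparisons that did not change. The ratio did not pass between genotypes with Cre, where it differed by -0.17 (exact p = 0.416, adjusted p = 0.583).

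VEGF-A, encoded by Vegfa, is a secreted ligand made by many cell types of the cord. It was the 1 member whose values did not overlap between the genotypes in the Cre libraries. The wild-type Cre libraries had 2.18, 6.97, 4.13, 4.15 and 4.88 CPM, on 11 to 159 counts. The C201R Cre libraries had 8.42, 11.2, 9.58, 8.31, 9.97 and 8.34 CPM, on 133 to 340 counts. All 6 C201R values were above all 5 wild-type values, a separation upward that 1.09% of the genes tested also had. The log2 fold change was 1.03 ± 0.23 (SE), with an unadjusted p of 0.000409 and an adjusted p of 0.0745 in edgeR, short of the threshold. DESeq2 gave an adjusted p of 0.00317 and limma-voom with quality weights 0.011. The other 7 of 9 alternatives, all edgeR fits, stayed short of the threshold, at adjusted p values up to 0.476. With 1 library left out, edgeR stayed short of it in 10 of 11 fits, at adjusted p values up to 0.161. Without wild-type replicate 2, the highest of its group, edgeR gave 1.22 with an adjusted p of 0.0108. The wild-type Cre libraries then left had 78.2% to 89.0% ribosomal RNA-like counts, and the C201R Cre libraries 53.0% to 75.3%. In that fit genotype and this share cannot be told apart.

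The leading number of the library titles, whose meaning the labels do not state, allowed the Vegfa comparison to be read within shared numbers. Among libraries numbered 20302, C201R averaged 9.81 CPM and wild type 4.51 CPM (2 libraries each, log2 difference 1.03). Among those numbered 20401, the averages were 9.78 and 4.57 CPM (2 libraries each, log2 difference 1.1995). Without the libraries numbered 18405 the log2 fold change in edgeR was 1.07 (adjusted p = 0.124). Of the C201R Cre libraries, replicates 2, 3 and 5 had oligodendrocyte sums of 802 to 1319 CPM, and in them Vegfa was at 11.2, 9.58 and 9.97 CPM. In the 4 wild-type libraries with oligodendrocyte sums of 546 to 773 CPM, Vegfa was at 2.18 to 4.88 CPM. Ribosomal RNA-like counts also differed between these sets, at 53.0% to 67.0% in C201R and 78.2% to 89.0% in wild type. The parts of other cells' RNA and of depth in the Vegfa values were not tested.

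Against the no-Cre libraries, Vegfa was lower with Cre in wild type by 1.40 ± 0.50 (log2, SE, edgeR, adjusted p = 0.0312). The wild-type no-Cre values were 4.70, 8.29 and 38.4 CPM (lowest, median, highest), and without replicate 2, which holds the value of 38.4 CPM, the log2 difference was -0.67 with an adjusted p of 0.0972. With the title number as a block it was -0.69 (adjusted p = 0.155), and the call also ended without any 1 of wild-type Cre replicates 1, 3, 4 and 5. In C201R the Cre libraries, 8.31 to 11.2 CPM, spanned nearly the same levels as the no-Cre libraries, 7.17 to 11.6 CPM, and the log2 difference was 0.00 ± 0.23 (edgeR, adjusted p = 0.992). The genotype effect on Vegfa differed between Cre and no-Cre libraries by 1.52 ± 0.55 (log2, SE), with an unadjusted p of 0.0101 and an adjusted p of 0.361 in edgeR. With a library left out this difference ran from 0.78 to 1.75, at edgeR adjusted p values of 0.152 to 0.619. In that test of the difference 0 of 8 members passed in edgeR, DESeq2 or limma-voom, and 0.0207% of 14468 genes were called by edgeR. An unadjusted edgeR p under 0.05 was found for 1 member and 10.5% of genes. Without Cre, Vegfa differed between genotypes by -0.52 ± 0.46 (edgeR, adjusted p = 0.965). When wild-type no-Cre replicate 2, at 38.4 CPM, was left out, that difference was 0.25 (edgeR, adjusted p = 0.951).

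**Figure D2:**
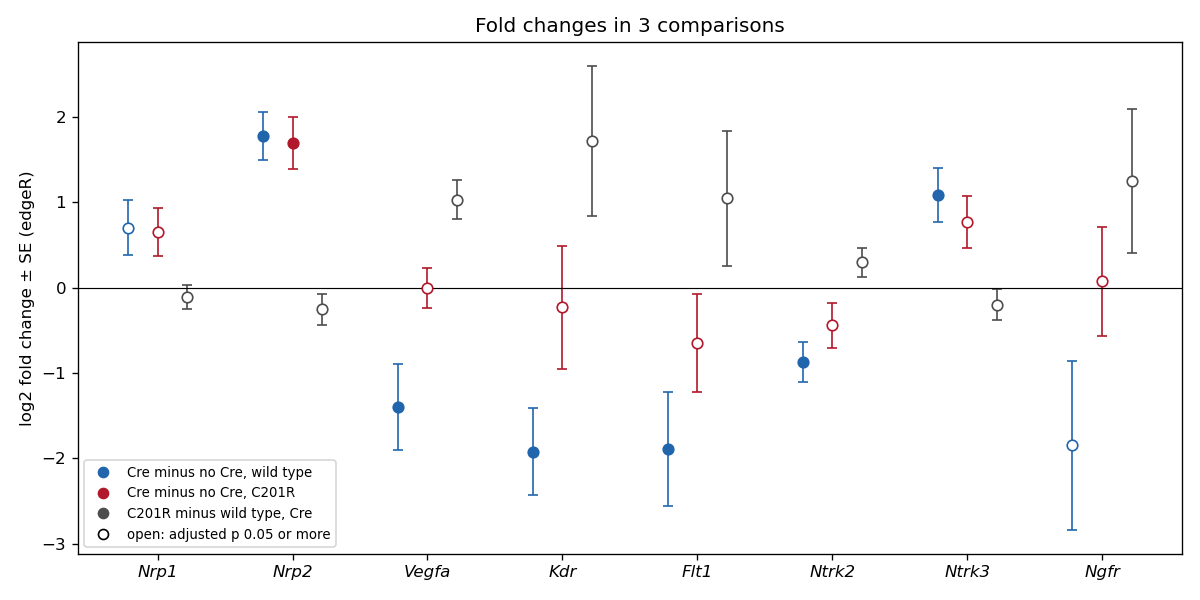
Log2 fold changes of the 8 genes (y axis, points, with SE as whiskers, edgeR) in 3 comparisons, with and without Cre in wild type (blue), the same in C201R (red), and C201R against wild type with Cre (grey). Filled points passed an adjusted p of 0.05: 6 in wild type, Nrp2 in C201R, and none between genotypes, where Vegfa stands at 1.03.

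Kdr and Flt1 encode the VEGF receptors 2 and 1, and both ranged widely between Cre libraries of one genotype. Kdr was at 0.59, 5.13, 0.83, 1.06 and 3.07 CPM in wild type with Cre and at 4.805, 0.79, 0.89, 8.16, 1.41 and 27.5 CPM in C201R replicates 1 to 6. Flt1 was at 0.40, 11.5, 1.24, 0.53 and 2.61 CPM in wild type and at 8.76, 1.28, 2.72, 6.59, 2.42 and 20.0 CPM in C201R. The high values of both genes were in wild-type replicate 2 and in C201R replicates 1, 4 and 6, the 4 Cre libraries whose endothelial markers summed to 30.8 CPM or more. In the other 7 Cre libraries Kdr was at most 3.07 CPM and Flt1 at most 2.72 CPM. None of the 10 endothelial markers was at 0 in all libraries of a Cre group. The part of endothelial RNA in the levels of Kdr and Flt1 was not tested.

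Without Cre, Kdr was at 4.35 to 11.3 CPM in wild type and 1.76 to 12.9 CPM in C201R, and Flt1 at 5.72 to 20.3 and 1.76 to 16.4 CPM. The value of 1.76 CPM for both genes rested on 3 counts each in C201R no-Cre replicate 5, the library with the fewest counts outside ribosomal RNA. In wild type the log2 fold change with Cre was -1.92 ± 0.51 (SE) for Kdr (edgeR, adjusted p = 0.00593) and -1.89 ± 0.67 for Flt1 (adjusted p = 0.0294). With the title number as a block Kdr was at -1.42 (adjusted p = 0.0567). Flt1 moved to -3.29 without wild-type Cre replicate 2, and its call ended when any 1 of 6 other libraries was left out. In C201R neither passed: Kdr differed by -0.23 ± 0.72 (adjusted p = 0.832) and Flt1 by -0.65 ± 0.57 (adjusted p = 0.401). The Kdr value depended on the setting. It was called lower in edgeR without the libraries numbered 18405 (-1.99, adjusted p = 0.0234) and by limma-voom (-1.75, adjusted p = 0.0168). In the libraries numbered 18405 alone, 2 with Cre (replicates 4 and 6) and 1 without, Kdr was at 1.19. Flt1 was called lower by limma-voom (-1.48, adjusted p = 0.0242). Endothelial markers showed 7 of 10 lower and 0 higher with Cre in wild type, and 0 of 10 called in C201R. Of all genes tested, 25.9% were called lower in wild type and 33.3% were called in C201R. Between genotypes with Cre, Kdr differed by 1.72 ± 0.88 and Flt1 by 1.05 ± 0.79 (edgeR, adjusted p = 0.323 and 0.494), and without C201R replicate 6 these became 0.56 and 0.36. With the title number as a block they were -0.45 and -0.03, and without wild-type replicate 2 Flt1 was at 2.49.

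The Flt1 to Kdr ratio passed in none of its 4 comparisons by the exact permutation test, and its largest log2 difference was 0.51 between genotypes with Cre (exact p = 0.307, adjusted p = 0.583).

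**Figure D3:**
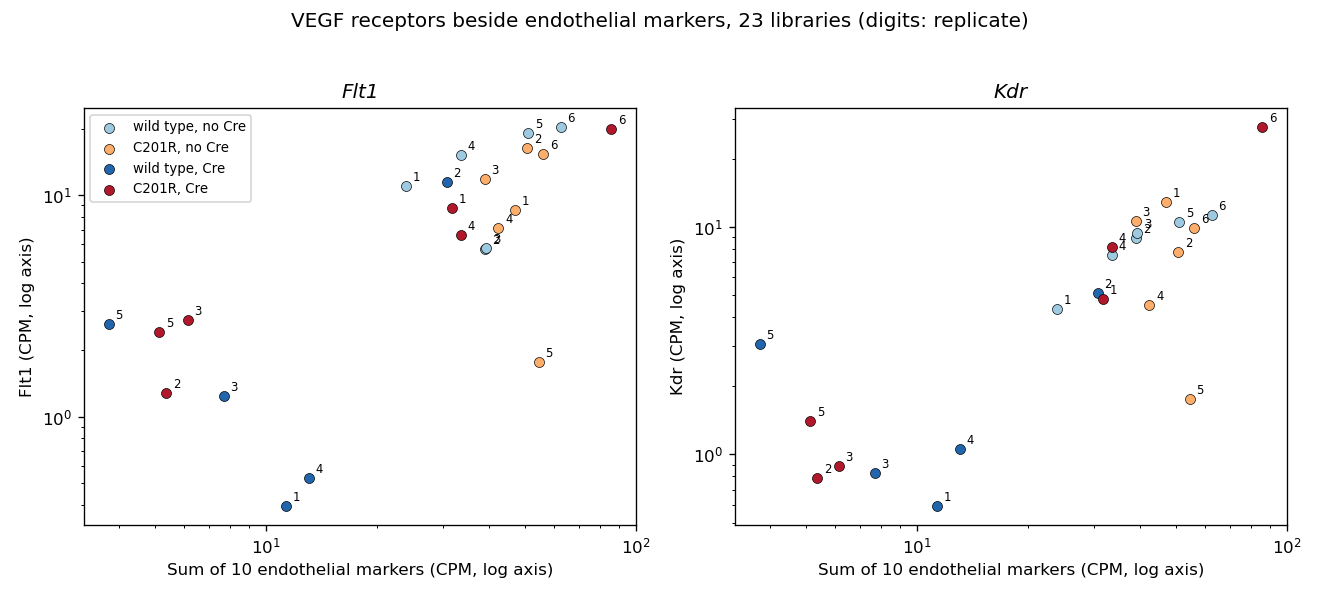
Flt1 (left) and Kdr (right) in CPM (y axes, log scale) against the summed CPM of 10 endothelial markers (x axes, log scale) in the 23 libraries, colored by group and numbered by replicate. Wild-type Cre replicate 2 and C201R Cre replicates 1, 4 and 6, lie at 30.8 to 85.7 CPM of endothelial markers, where the no-Cre libraries lie at 23.9 to 62.6 CPM and the other 7 Cre libraries at 3.75 to 13.1 CPM.

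Ntrk2 makes a full-length TrkB receptor with a kinase domain and shorter receptors that lack it, of which the one called T1 is known from astrocytes. The deposited tables assign 2 transcripts to the gene, and in GENCODE M21 these are a long one, ENSMUST00000079828, with 821 codons, and a short one, ENSMUST00000109838, with 476 codons. Their coding sequences are shared for 1393 bases and then part, as shown here because the measurements further on depend on which of the 2 a library holds. Each line gives the last 30 shared coding bases in lower case and the sequence after the split in capitals, 5′ to 3′ on the plus strand, from the GENCODE M21 transcripts. The capitals lie at chr13:58985802-58985861 for the long one, which reads on toward the kinase domain, and at chr13:58932023-58932060 for the short one, where they run through the stop codon.
Long Ntrk2 transcript: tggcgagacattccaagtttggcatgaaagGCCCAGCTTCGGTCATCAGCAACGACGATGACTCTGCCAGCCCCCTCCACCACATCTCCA
Short Ntrk2 transcript: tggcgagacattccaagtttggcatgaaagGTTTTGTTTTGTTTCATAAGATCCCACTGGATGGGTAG

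Summed over both transcripts, Ntrk2 was lower with Cre in wild type. It was at 25.6, 51.9, 31.1, 34.4 and 40.4 CPM with Cre and at 47.3, 72.8 and 86.7 CPM (lowest, median, highest) without, and wild-type Cre replicate 2 alone reached the no-Cre range. The log2 fold change was -0.87 ± 0.23 (SE, edgeR, adjusted p = 0.00628). In C201R the Cre libraries, 38.4 to 49.1 CPM, lay within the no-Cre libraries, 21.1 to 82.6 CPM, and the difference of -0.44 ± 0.26 did not pass (edgeR, adjusted p = 0.21). It passed by limma-voom (-0.66, adjusted p = 0.00369). In the 2 Cre libraries and 1 no-Cre library numbered 18405 alone, the difference was -0.75. Ntrk2 differed between genotypes with Cre by 0.30 ± 0.17 (adjusted p = 0.369). Astrocyte markers were also lower with Cre, 8 of 10 with 0 higher in wild type and 4 of 10 in C201R. Of all genes tested, 25.9% and 19.2% were called lower. This was not particular to astrocytes: of markers tested, 9 of 9 for oligodendrocytes and 6 of 6 for microglia were lower in wild type. In C201R 4 of 9 and 1 of 8 were lower. The part of these cells' RNA in the Ntrk2 levels was not tested.

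The transcripts behind the Ntrk2 counts differed between Cre and no-Cre libraries in both genotypes. RSEM gives each gene a length weighted by the abundance of its transcripts, and the M21 lengths are 8744 bases for the long transcript and 6846 for the short one. In wild type with Cre the weighted lengths were 8161, 7890, 8148, 8205 and 8298 bases, and without Cre 7225, 7348 and 7635 bases (lowest, median, highest). In C201R they were 8051, 8140, 8185, 7544, 8158 and 7525 bases in replicates 1 to 6 with Cre, and 7238, 7356 and 7482 bases without. The groups did not overlap in either genotype, so that every Cre library gave more weight to the longer transcript than any no-Cre library of its genotype. The mean difference was 752 bases in wild type (two-sided exact permutation test, p = 0.00433, adjusted p = 0.0346 over 24 comparisons) and 582 bases in C201R (exact p = 0.00216, adjusted p = 0.0346), both the smallest p that these groups allow. With 1 library left out the wild-type difference stayed at 713 to 814 bases, at adjusted p values of 0.0571 to 0.0762, and the C201R difference at 532 to 664 bases with adjusted p values of 0.026 to 0.0346.

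C201R replicates 4 and 6 had the shortest Ntrk2 lengths with Cre, 7544 and 7525 bases, and wild-type replicate 2 the shortest of its group. These were also libraries with high astrocyte sums, 570, 691 and 399 CPM, where the other Cre libraries had 160 to 264 CPM, and the part of astrocyte RNA was not tested. In wild type without Cre, replicates 1 to 3 had Ntrk2 lengths of 7384 to 7635 bases on 339 to 598 counts. Replicates 4 to 6 there had 7225 to 7312 bases on 1511 to 2159 counts. C201R Cre replicates 4 and 6 had 1343 and 766 counts, and the other C201R Cre libraries 734 to 1437. The part of depth in the Ntrk2 lengths was not tested. The lengths differed between genotypes with Cre by -207 bases (exact p = 0.251, adjusted p = 0.464). The tables may rest on transcript models other than M21: the Nrp1 length in the tables is 5907 bases where the M21 transcript has 3597, so no share of each Ntrk2 transcript is given. Nrp2, with 7 transcripts in the tables, had a weighted length of 4146 ± 147 bases (SD, n = 5) in wild type with Cre and 5042 ± 491 bases (n = 6) without, with no overlap (exact p = 0.00433, adjusted p = 0.0346). That call ended whichever library was left out, at adjusted p values of 0.0571 to 0.0762 in an exact test on fewer libraries. Wild-type no-Cre replicates 1 to 3 had Nrp2 lengths of 5151 to 5753 bases on 40 to 98.3 counts. Replicates 4 to 6 of that group had 4480 to 5035 bases on 292 to 471 counts, and the part of depth was not tested. In C201R the Nrp2 length difference of -666 bases did not pass (exact p = 0.0238, adjusted p = 0.113). The length comparison was chosen after the values had been seen.

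Ntrk3, the neurotrophin 3 receptor known from proprioceptive and motor neurons, was higher with Cre in wild type. Its values were 14.5, 12.6, 12.2, 13.7 and 17.4 CPM with Cre and 3.77, 6.72 and 10.1 CPM (lowest, median, highest) without, with no overlap. Such a separation upward was found for 13.3% of the genes tested in wild type. The log2 fold change was 1.09 ± 0.32 (SE, edgeR, adjusted p = 0.0107). In C201R the Cre libraries had 9.33, 11.7 and 17.9 CPM and the no-Cre libraries 3.02, 6.44 and 10.2 CPM, which overlapped through Cre replicate 4, and the difference of 0.77 ± 0.30 missed the threshold (adjusted p = 0.0595). It passed by DESeq2 (0.87, adjusted p = 0.0177) and in edgeR with RLE size factors, without ribosomal RNA genes and without a filter. It also passed in edgeR with all 23 libraries in 1 fit and without the libraries numbered 18405. In the 2 Cre libraries and 1 no-Cre library of that number alone, the difference was 0.04. Ntrk3 differed between genotypes with Cre by -0.20 ± 0.18 (edgeR, adjusted p = 0.577).

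The 2 Trk receptors therefore stood in different proportions with and without Cre. The log2 ratio of Ntrk3 to Ntrk2 counts averaged -1.35 ± 0.44 (SD, n = 5) in wild type with Cre and -3.43 ± 0.67 (n = 6) without Cre, with no overlap. The median count ratios were 0.4 and 0.119. In C201R the averages were -1.90 ± 0.42 with Cre and -3.10 ± 0.61 without. The Cre difference was 2.08 in wild type (two-sided exact permutation test, p = 0.00433, adjusted p = 0.0346) and 1.201 in C201R (exact p = 0.00649, adjusted p = 0.0346). Leaving out any 1 of the 12 C201R libraries but no-Cre replicate 5 ended the C201R call, at an adjusted p of 0.0519. Here too the exact test had fewer libraries, and its adjustment included wild-type comparisons that did not change. In C201R it was 0.76 with an adjusted p of 0.26 when taken from deposited TPM, a unit that divides each count by its library's weighted length. The ratio differed between genotypes with Cre by -0.55 (exact p = 0.0693, adjusted p = 0.166).

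**Figure D4:**
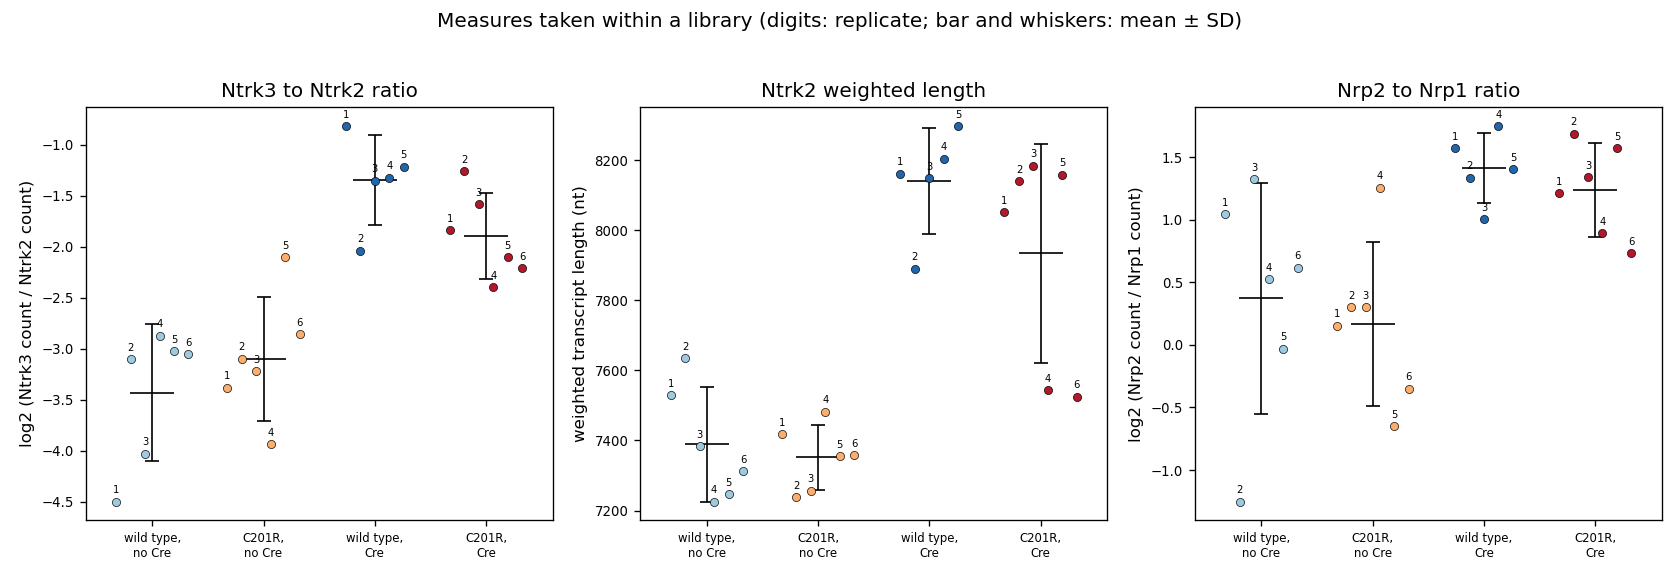
Log2 Ntrk3 to Ntrk2 count ratio (left), RSEM's weighted length of Ntrk2 in bases (middle) and log2 Nrp2 to Nrp1 count ratio (right) for each library (points, numbered by replicate) in the 4 groups (x axis), with the group mean ± SD. Weighted lengths are 7525 to 8298 bases with Cre in both genotypes together and 7225 to 7635 bases without, where C201R Cre replicates 4 and 6 fall within the wild-type no-Cre range.

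Ngfr, the p75 neurotrophin receptor that motor neurons are known to carry during development, was close to the counting limit. It was at 2.97, 0.22, 0.50, 0.00 and 0.11 CPM in wild type with Cre, on 15, 5, 6, 0 and 1 counts, so that 1 library held most of the group's counts. In C201R with Cre it was at 0.69, 1.39 and 2.78 CPM (lowest, median, highest), on 14 to 76 counts. Without Cre it ran from 0.26 to 5.65 CPM in wild type and from 0.13 to 4.01 CPM in C201R. All 4 groups overlapped, and Ngfr passed in none of the comparisons in edgeR: the log2 differences were -1.85 ± 0.99 with Cre in wild type (adjusted p = 0.137) and 1.25 ± 0.84 between genotypes with Cre (adjusted p = 0.443). Without wild-type Cre replicate 1 the first was -3.47 with an adjusted p of 0.0128 in edgeR, and by limma-voom it was -2.82 (adjusted p = 0.00518).

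Levels of different genes were compared only after division by effective length, as CPM per kilobase. In wild type with Cre, Nrp2 came first with a median of 10.2, followed by Vegfa at 4.99, Ntrk3 at 4.92, Ntrk2 at 4.27, Nrp1 at 2.47, Flt1 at 0.208, Kdr at 0.183 and Ngfr at 0.0664. Ntrk2 and Nrp1 were the single neighbours in that order whose ranges did not overlap, and Vegfa was above Ntrk3 in 2 of 5 libraries. In C201R with Cre the medians were 9.25 for Vegfa, 8.03 for Nrp2, 5.74 for Ntrk2, 4.61 for Ntrk3, 2.42 for Nrp1, 1.14 for Flt1, 0.611 for Kdr and 0.42 for Ngfr. There Ntrk3 and Nrp1 were the neighbours with ranges apart, and Vegfa was above Nrp2 in 6 of 6 libraries though the ranges of the genes overlapped. Without Cre, Ntrk2 had the highest median in both genotypes, 10.2 in wild type and 8.48 in C201R, and no neighbours had ranges apart. Vegfa came next, and Ntrk2 was above it in 5 of 6 wild-type libraries but in 2 of 6 C201R libraries. The lengths used for Vegfa, Flt1, Kdr and Ntrk3 varied between libraries by more than 1.7 times, which moves their place in the order.

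Over both genotypes, with all 23 libraries in 1 fit, 6 of the 8 genes differed with Cre, 3 higher and 3 lower, where 56.8% of 14468 genes were called, 22.1% higher and 34.7% lower. The log2 averages were 1.73 ± 0.22 for Nrp2, 0.92 ± 0.22 for Ntrk3, 0.67 ± 0.21 for Nrp1, -0.67 ± 0.18 for Ntrk2, -0.70 ± 0.28 for Vegfa and -1.26 ± 0.47 for Flt1 (SE, edgeR, adjusted p from 1.61e-07 for Nrp2 to 0.031 for Vegfa). Kdr, at -1.07 ± 0.47, and Ngfr, at -0.92 ± 0.60, did not pass (adjusted p = 0.0539 and 0.194). By limma-voom all 8 members were called, with Kdr at -2.18 (adjusted p = 2.03e-05) and Ngfr at -1.24 (adjusted p = 0.0451). With the title number as a block 3 members were called, without Nrp1 at 0.56 (adjusted p = 0.137) and Ntrk3 at 0.51 (adjusted p = 0.182) among them. The Vegfa call ended with 15 of 23 libraries left out in turn, and Vegfa was at 0.23, with 1 member called in all, when libraries were scaled by their totals alone.

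The partners of the members were read from 3 lists in the same average Cre effect. Of 21 semaphorin and plexin partners of neuropilins, all tested, 9 were higher and 6 lower with Cre, and the list median was 0.28 where that of all genes was -0.28. Sema3a, the repulsive ligand that signals through Nrp1, was at 23.1 ± 2.38 CPM (SD, n = 5) in wild type with Cre and 3.31 ± 1.70 CPM (n = 6) without, with an average log2 change of 2.27 ± 0.29 (SE, edgeR, adjusted p = 2.4e-07). Sema3c was also higher, at 1.06 ± 0.29, while Sema3b and Sema3d were lower, at -1.58 ± 0.55 and -0.90 ± 0.29. Sema3e, Sema3f and Sema3g did not pass, and Sema3f, the classical ligand of Nrp2, was at 0.659 CPM or less in all 11 Cre libraries. L1cam, an adhesion molecule that pairs with Nrp1, was higher by 1.57 ± 0.18, Plxna4 by 1.00 ± 0.17 and Nrcam by 0.81 ± 0.13, whereas Plxna2 was lower by 1.93 ± 0.22, at 12.5 CPM with Cre and 44.8 CPM without in wild type.

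Of 15 other VEGF ligands, partners and regulators, 14 were tested, 2 were higher and 5 lower with Cre, and the list median was -0.46. Pgf, which encodes placental growth factor, a ligand of Flt1 and Nrp1, was higher: it was at 5.15 ± 0.95 CPM in wild type with Cre (SD, n = 5), 2.83 ± 0.69 CPM in C201R with Cre (n = 6), 0.33 ± 0.42 CPM in wild type without Cre (n = 6) and 1.70 ± 1.91 CPM in C201R without Cre (n = 6). The C201R libraries without Cre reached 5.28 CPM and so overlapped those with Cre. Its average log2 change was 2.37 ± 0.47 (SE, edgeR, adjusted p = 0.000125). Vegfb, at 1.83 and 3.37 CPM in the wild-type and C201R Cre groups, and Vegfc, at 0.21 and 0.42 CPM, did not pass, and Figf was too low to be tested. Epas1, the hypoxia-inducible factor typical of endothelium, was lower by 2.58 ± 0.38, its partner Arnt by 2.30 ± 0.40, Ptprb, an endothelial phosphatase, by 2.30 ± 0.45, and Plcg1, which acts behind both VEGF and Trk receptors, by 1.44 ± 0.23.

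Of 24 neurotrophins, further receptors and adaptors, 20 were tested, 6 were higher and 6 lower with Cre, and the list median was 0.37. Among the ligands, Bdnf was at 1.01 ± 0.95 CPM in wild type with Cre and 2.25 ± 0.95 CPM in C201R with Cre, and did not pass in any comparison. Ntf3 and Ntf5 were too low to be tested: the 11 Cre libraries together held 5 and 0 counts of them. Maged1 and Ngfrap1, 2 adaptors that bind the p75 receptor, were higher by 1.62 ± 0.18 and 1.46 ± 0.17, at 246 and 68.0 CPM in wild type with Cre and 78.0 and 19.1 CPM without. Gab1, a docking protein of receptor kinases, was lower by 2.49 ± 0.37. Between genotypes with Cre, edgeR called 0 of 19, 0 of 13 and 0 of 20 genes tested in the 3 lists, and 1, 2 and 4 had an unadjusted p under 0.05, where 0.331% of all genes were called and 17.0% had such a p. Among these was Pgf, at -0.87 ± 0.25 (log2, SE, adjusted p = 0.135). Scaled by library totals alone, the numbers higher and lower with Cre became 8 and 0, 2 and 3, and 6 and 1 in the 3 lists, while every named change in these paragraphs kept its sign.

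Genes whose levels ran most like a member's were ranked by Pearson's r of log2(CPM + 1) over the 23 libraries among 11140 genes, given as a description because all points share library, scaling and group. For Kdr these were Prom1 (r = 0.94), Elovl1 (0.93) and Ednrb (0.92), and for Flt1 they were Ptprb (0.92), Gpr116 (0.91) and Serinc5 (0.91). For Nrp2 they were Psmd12 (0.96), C1qbp (0.95) and Tmem255a (0.95), for Ntrk2 Nhsl2 (0.96), Pum2 (0.96) and Apc (0.93), and for Ntrk3 Msra (0.91), Lrrc73 (0.91) and Clmp (0.90). Nrp1 was matched by Sec31a (0.94), Pabpc4 (0.92) and Agfg1 (0.90), and Vegfa and Ngfr by no gene above 0.83 and 0.70. After subtraction of group means, Prom1 still led for Kdr (0.95), Ptprb for Flt1 (0.92) and Sec31a for Nrp1 (0.92), whereas Pum2 led for Ntrk2 (0.95), Ptcd3 for Nrp2 (0.90) and Ubp1 for Ntrk3 (0.83).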

How the data were processed

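Expected counts were deposited by the authors for each gene and library, together with RSEM's TPM, lengths and FPKM, the last of which was not used. Bowtie2 2.2.0 and RSEM 1.2.12 are named in the submitters' processing notes. The build and gene models behind them were not given in the sources used here. The deposited expected counts were rounded to whole numbers. Groups came from the source labels, and 37607 of the 38924 gene IDs matched GENCODE M21, which supplied positions and transcripts.

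Each comparison was fitted over all genes with edgeR 4.0.16 (quasi-likelihood test; filterByExpr with a minimum count of 10 and minimum total of 15; TMM scaling) in R 4.3.3, with Benjamini-Hochberg adjustment and a threshold of 0.05. The comparisons were Cre against no Cre in wild type and in C201R, C201R against wild type with and without Cre, the difference of those genotype effects, and the average Cre effect. Each SE of an edgeR fold change was derived, as the absolute log2 fold change divided by the square root of the test's F statistic. Count ratios used a pseudocount of 0.5 and, like the deposited weighted lengths, two-sided exact permutation tests (scipy 1.17.1, Python 3.11.15), adjusted over 12 and 24 comparisons. Fits were tested on simulated data.

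Alternatives were DESeq2 1.42.0, limma-voom (limma 3.58.1), other scalings and filters, the title number as a block, and leaving out each library. Ratios were also taken from deposited TPM. Leaving out the libraries of title number 18405 was chosen after the data were seen. The members, the 3 pathway lists and the 10 marker lists were chosen with earlier results of these data known. Named partners are the ligands of each list and up to 4 further genes with the smallest p in the average Cre effect; for likeness, the 3 genes with the highest r and a mean of at least 1 CPM.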

Additional observations from a re-analysis of the deposited data

Results flagged for a closer look

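In 4 of 52 sets of values tested (gene levels, count ratios and weighted lengths, each within a group), 1 library lay far from the rest of its group by Dixon's criterion, and chance flags about 1 in 20. Vegfa was at 38.4 CPM in wild-type no-Cre replicate 2, where the other libraries of that group had far lower values. Kdr was at 27.5 CPM in C201R Cre replicate 6, which also had the highest endothelial marker sum of the 23 libraries, 85.7 CPM. Flt1 was at 11.5 CPM in wild-type Cre replicate 2, whose endothelial sum of 30.8 CPM was the highest of its group. Ngfr was at 2.97 CPM in wild-type Cre replicate 1, on 15 counts. The part of endothelial RNA in the Kdr and Flt1 values was not tested.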

How the results depend on the processing

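No paired analysis was possible because the replicate numbers follow accession order and pair no libraries. Where a result lost or gained its call or turned, the cause was not tested, except that with a library left out an exact permutation p cannot be as small. Scaling by library totals alone moved the median log2 fold change of all genes from -0.14 to 1.13 in C201R with against without Cre, from 0.06 to 0.79 between genotypes with Cre, from -0.28 to 0.39 in the average Cre effect, from 0.12 to 1.18 in the difference, and from -0.02 to -0.35 between genotypes without Cre. It moved the share of calls that were higher from 42.4% to 92.2% in the first and from 38.9% to 71.6% in the average, and between genotypes with Cre from 70.7% to all.

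Of the members, 0 were called in wild type with library totals, 8 by limma-voom, and 4 to 6 with a library left out. In C201R, 3 were called with RLE size factors, without ribosomal RNA genes, by DESeq2 and without libraries numbered 18405. There, 4 were called by limma-voom, 2 without a filter or with 23 libraries in 1 fit, and 1 to 3 with a library left out. Between genotypes with Cre, 1 was called by DESeq2 and by limma-voom, and 0 to 1 with a library left out. In the average, 1 was called with library totals, 3 with the block, 8 by limma-voom, and 4 to 7 with a library left out.

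Of all genes, 5735 were called in wild type and 909 with library totals. In C201R 4248 were called, 6990 by limma-voom and 8175 without a filter. Between genotypes with Cre 41 were called, 17 with library totals, 413 by DESeq2, 862 by limma-voom, 89 without a filter, 19 with the block, 11 with 23 libraries in 1 fit, and 10 (without wild-type replicate 3) to 1057 (without wild-type replicate 2) with a library left out. Without Cre, 31 were called without a filter. In the difference 3 were called, 1 with library totals, 42 by DESeq2, 169 by limma-voom, 9 without a filter and 1 to 8 with a library left out. In the average 8211 were called, 4737 with library totals.

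In C201R, Vegfa turned from its value near 0.00 to 0.0909 with RLE, 1.32 with library totals, 0.13 without ribosomal RNA genes or a filter, and 0.11 by DESeq2. It was at 0.0403 by limma-voom, 0.18 in the libraries numbered 18405 alone, 0.0572 with 23 libraries, 0.16 without 18405, and -0.0635 to 0.25 with a library left out. Library totals turned Kdr to 0.61, Flt1 to 0.12 and Ntrk2 to 0.51 there. Kdr was at 1.19 in the libraries numbered 18405 alone and was called at -1.99 without them (edgeR, adjusted p = 0.0234). With a library left out Kdr was at -1.22 to 0.12 and Ngfr at -0.21 to 0.96, and Ngfr was at -0.23 without 18405. Between genotypes with Cre, library totals turned Nrp1 to 0.67, Nrp2 to 0.59 and Ntrk3 to 0.63, the block Kdr to -0.45 and Flt1 to -0.0324, and leaving out 18405 Kdr to -0.18. Without Cre, Vegfa was at 0.0258 by limma-voom and -0.70 to 0.25 with a library left out. In the average, Vegfa was at 0.23 with library totals.

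The Nrp2/Nrp1 log2 ratio passed in wild type from TPM, at 1.33, and was 0.72 to 1.23 with a library left out. In C201R it was 0.91 to 1.29. The Ntrk3/Ntrk2 ratio in C201R was 0.76 from TPM and 1.03 to 1.40. The Flt1/Kdr ratio ran from -0.00463 to 0.40 in C201R and from -0.36 to 0.045 between genotypes without Cre.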
